A study of Sus scrofa with 5 samples.

Results

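The subject here is ssc-miR-21, the pig's miR-21, in the exosomes of 5 body fluids. It was found by its exact name in the deposited table of each fluid and is 1 of the 411 mature miRNA names listed there. It is the only listed name of its hairpin, with no second arm beside it, and was read in all 5 fluids. Exosomes are small vesicles that cells release, and they carry miRNAs into fluids. They were isolated with a commercial reagent from semen, bile, serum, urine and plasma of Rongchang pigs, a Chinese breed, all at postnatal day 180, and their small RNA was sequenced. Each fluid gave 1 library. The number and sex of the animals, any pooling, and whether the fluids shared animals are not stated in the labels. No treatment or mutation is named for any group, and vesicle markers were not analysed here, since the tables hold miRNAs only.

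miRNAs are short RNAs that guide Argonaute proteins to matching sites in mRNAs and lower their output. miR-21 is expressed in most tissues and is among the miRNAs most often raised in human tumours, injured tissue and scarring organs. A known target in human and mouse is PDCD4, which restrains protein synthesis and growth. The gene of miR-21 is induced by STAT3 and AP-1. In human it overlaps the end of VMP1, and in the RefSeq list of pig genes MIR21 stands near PTRH2 and TUBD1. Because so many cell types make it, miR-21 is measured in body fluids as a candidate marker without pointing to a single organ.

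The libraries held 26522 miRNA counts in urine to 2284926 in semen. The authors' second column gives RPM, counts scaled to 1000000 reads of a larger library total, and the listed miRNAs took 21.2% of that total in semen, 15.9% in bile, 4.47% in serum, 0.246% in urine and 16.0% in plasma. Markers of possible source tissues came from lists of 2 to 4 measured miRNAs. The liver, kidney tubule and male germ cell lists stood where the labels would place them. By share of all miRNA counts, the 2 blood cell lists stood high in serum but not in plasma. The 4 liver miRNAs summed to 19.7% of counts in bile, against 0.0154% to 1.70% in the other fluids. Of the kidney tubule list miR-204 and miR-30a-5p were measured, with 22.5% in urine and 0.0423% to 1.95% elsewhere. Of the male germ cell list miR-34c and miR-202-5p were measured, at 604 and 11 counts in semen and listed at 0 in the other fluids. Their semen shares were 0.0264% and 0.000481%. In urine the lowest listed count, 10, already made 0.0377%, so their 0 in urine tells little. The 3 red blood cell miRNAs summed to 10.2% in serum, 0.583% in plasma and 0.000525% to 0.468% in the rest, where miR-451 itself was listed at 0 in semen. Of the platelet and myeloid list, miR-126-3p and miR-142-3p were measured. Their sum was 0.499% in serum, 0.0366% to 0.0528% in semen, bile and urine, and lowest in plasma, at 0.0314%. In plasma miR-378, miR-320 and miR-423-5p took 83.9% of all counts, which lowers the share of every other miRNA there. The sums of the 2 blood cell lists were not recomputed without them, so their low plasma shares do not show few blood cell miRNAs in plasma.

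miR-21 was a leading miRNA of every fluid and took its largest part in semen and bile. In semen it had 198507 counts, 8.69% of all miRNA counts (95% interval 8.65 to 8.72). In bile it had 143237 counts, or 8.56% (8.52 to 8.60). Semen and bile thus carried nearly the same share.

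Serum held 12427 counts of miR-21, 2.63% of its total (2.58 to 2.67). Urine held 1204 counts, which made 4.54% of its 26522 miRNA counts (4.29 to 4.80). Plasma held 4918 counts and the lowest share, 0.426% (0.414 to 0.438). The order by share was semen, bile, urine, serum and plasma. All intervals are exact binomial (Clopper-Pearson) and cover counting error only, because reads after PCR are not independent molecules and there was no second library of any fluid. No 2 of the 5 intervals overlapped, yet whether neighbours in this order differ beyond the spread between animals could not be tested. A share also cannot tell more vesicles with miR-21 from more copies of it per vesicle.

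**Figure D1:**
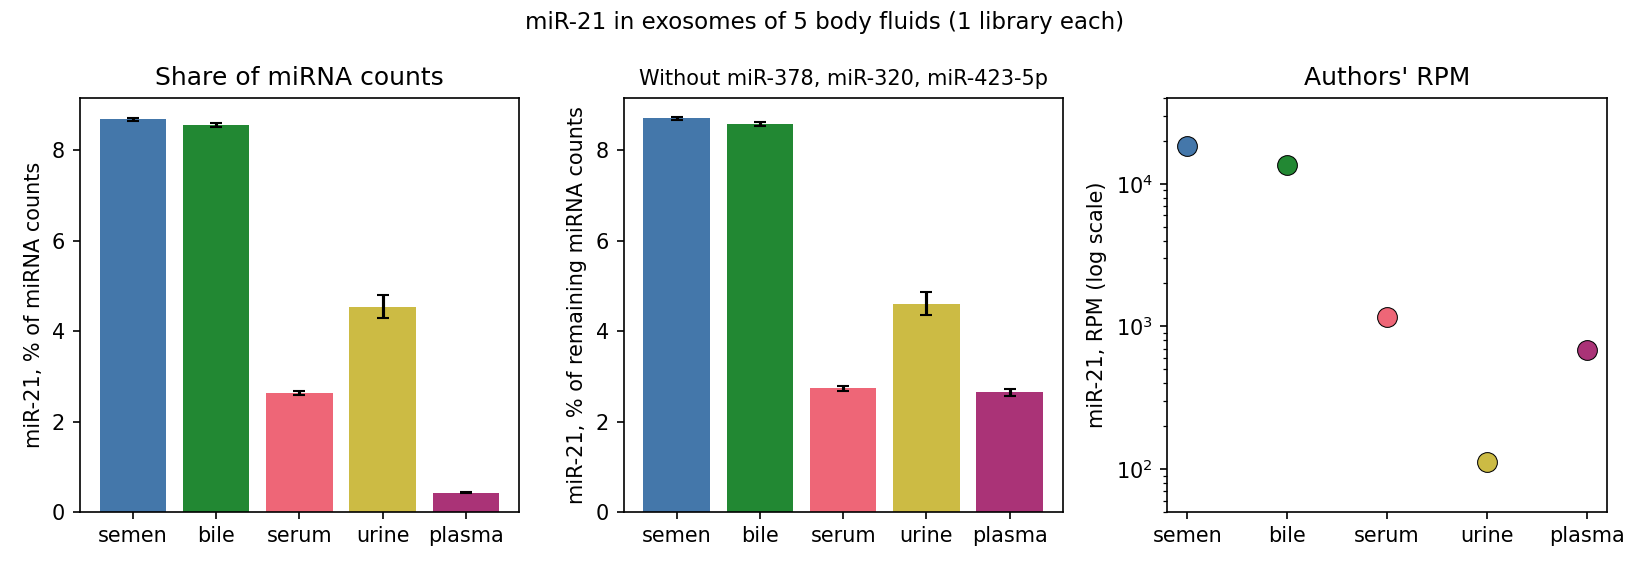
miR-21 in each fluid, 1 library each: share of miRNA counts in % (left), the same without miR-378, miR-320 and miR-423-5p (middle) and the authors' RPM on a log axis (right). Bars carry exact 95% counting intervals; semen and bile stand highest in all 3 panels, while plasma and urine change places between them.

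By rank miR-21 was second in semen, after miR-148a-3p, which is known as a leading miRNA of the liver and had 6.08 times its counts. It came before miR-10a-5p, a HOX cluster miRNA, which it exceeded 1.63 times. In bile it was 3 of 179 names above 0, behind miR-192, an epithelial and liver miRNA with 1.61 times its counts, and just before let-7i, which it exceeded 1.02 times. In both fluids miR-148a-3p led the library.

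In serum miR-21 ranked 10 of 180 names, between miR-215 at 1.12 times its counts and let-7c, which it exceeded 1.15 times. In urine it ranked 5 of 84, between miR-10a-5p with 1229 counts and miR-26a with 1126. In plasma it ranked 11 of 161, between miR-22-3p with 5733 counts and the red blood cell miRNA miR-451 with 4775. Neighbouring ranks carried unequal shares, since rank 11 in plasma held 0.426% and rank 10 in serum 2.63%. The plasma library was led by miR-378, which had 97.1 times the counts of miR-21.

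**Figure D2:**
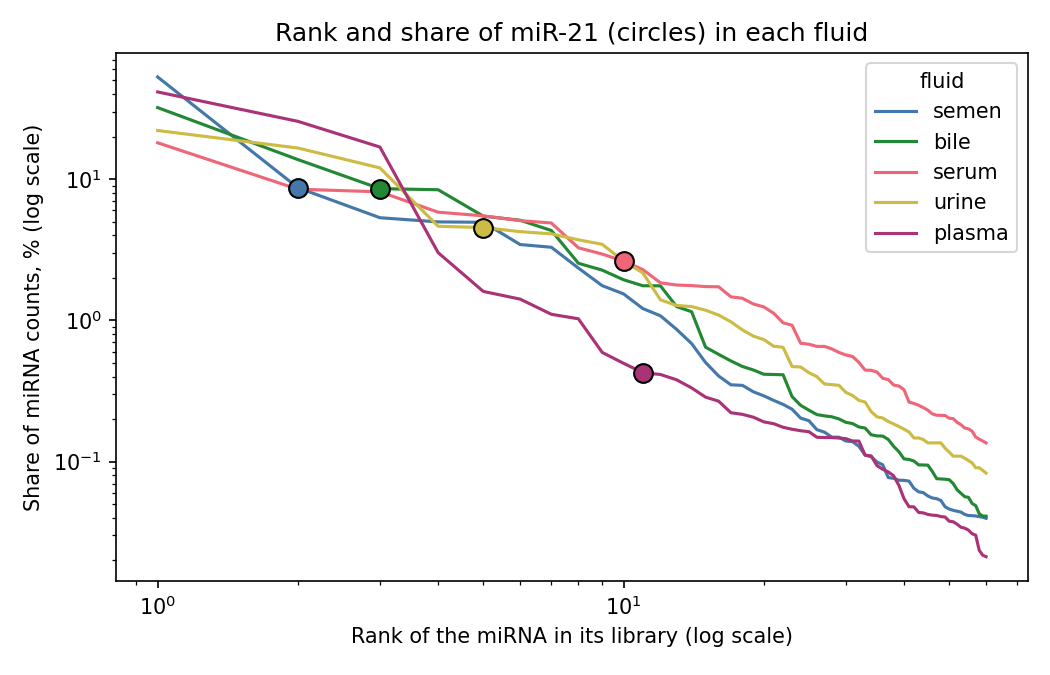
Share of miRNA counts in % against rank for the 60 most abundant miRNAs of each fluid, both axes logarithmic, with miR-21 as a circle. miR-21 lies between rank 2 in semen and rank 11 in plasma, and the plasma curve lies under the others from rank 4 on to the rank of miR-21.

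The share of miR-21 in plasma was set against 3 miRNAs, miR-378, miR-320 and miR-423-5p, which took 83.9% of all plasma counts. They took 3.86% in serum, 1.40% in urine, 0.256% in semen and 0.245% in bile. Among the counts that remain without these miRNAs, miR-21 held 8.71% in semen, 8.58% in bile, 2.73% in serum (2.68 to 2.78), 4.60% in urine and 2.65% in plasma (2.57 to 2.72). Serum over plasma was then 1.03 (0.998 to 1.07), in place of 6.16 (5.96 to 6.37) on all counts. Within the rest of their miRNAs, the serum and the plasma library therefore carried miR-21 at a ratio whose counting interval held 1. This rescaling was chosen after the data were seen, and its ratio depends on which miRNAs are left out. The next in plasma, miR-296-3p with 34789 counts and miR-378b-3p with 18487, were kept. Without only the most abundant miRNA of each library, serum over plasma was 4.41. Scaling by TMM or DESeq2 size factors, described below, gave 0.624 and 0.605. The counting interval does not cover this choice.

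Fluids were then compared in all 10 pairs, to see where miR-21 differed by at least 2-fold in CPM (counts scaled to 1000000 miRNA counts). Of the 10 pairs, 6 passed this limit of size, which is no test. As background the same limit was put to all miRNAs with at least 100 counts in either library of a pair. In the pairs with urine this background is set largely by the few miRNA counts of the urine library. Only 26 names reached 100 counts in urine, and nothing under 10 counts, or 377 CPM, is listed there, so most of the miRNAs compared entered through the other fluid. Medians over the 67 names with at least 10 counts in all 5 libraries are therefore given as well, a choice made after the data were seen. These names are no neutral baseline for urine, since the same floor selects them. A name had to reach 377 CPM in urine, but 4.38 in semen, 5.98 in bile, 21.1 in serum and 8.67 in plasma. The set thus favours names high in urine, and its medians in pairs with urine lean towards urine.

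miR-21 stood at 86877 CPM in semen and 26263 CPM in serum, a ratio of 3.31 (exact conditional binomial interval 3.25 to 3.37). Of the 141 miRNAs compared, 25.5% were at least 2-fold higher in semen, and the median ratio was 0.428. Bile, at 85605 CPM, exceeded serum 3.26 times (3.20 to 3.32), where 28.3% of 138 miRNAs passed in this direction and the median ratio was 0.424. The middle miRNA of both pairs was thus lower than in serum and miR-21 was higher. Against the median ratio of each pair, miR-21 stood 7.73 times higher in semen and 7.68 times higher in bile. Against the median of the 67 names, it stood 7.18 and 4.80 times higher.

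Against plasma, at 4263 CPM, semen was 20.4 times higher (19.8 to 21.0) and bile 20.1 times (19.5 to 20.7). There the background was high: 55.3% of miRNAs passed in semen over plasma and 60.3% in bile over plasma, with median ratios of 4.49 and 4.59. Relative to those medians, miR-21 was 4.54 and 4.38 times higher, and relative to the medians of the 67 names 2.79 and 2.91 times. Urine over plasma was 10.6 (9.99 to 11.3), where 41.8% of 91 miRNAs passed, of which 86 had at least 100 counts in plasma, 26 had them in urine and 34 were listed at 0 in urine. The median ratio of the 67 names, which favour urine, was 8.29 there, and miR-21 exceeded it 1.29 times. Over all 91 miRNAs the median ratio was 0.996. Serum over plasma, 6.16, lay close to the median ratio of 6.77 of its pair, and 73.1% passed. The ratio of miR-21 between serum and plasma was therefore no larger than that of the middle miRNA of this pair, nor than the 9.13 of the 67 names. The red blood cell list moved with these fluids as well, at 10.2% of counts in serum against 0.583% in plasma, and its part in the ratio was not tested.

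The other 4 pairs stayed within 2-fold. Semen over bile was 1.01 (1.008 to 1.02), in a pair where 33.3% of miRNAs were at least 2-fold higher in semen. Semen over urine was 1.91 (1.81 to 2.03), with a background of 42.6%, and bile over urine 1.89 (1.78 to 1.997), with 44.3%. Serum over urine was 0.579 (0.545 to 0.614). In that pair 13.3% of 105 miRNAs were at least 2-fold lower in serum, but 103 of the 105 had at least 100 counts in serum and 42 were listed at 0 in urine. Over the 67 names, which favour urine, the median ratio was 1.14 for serum over urine. It was 0.548 for semen over urine and 0.833 for bile over urine. Over all miRNAs compared, these medians were 8.42, 1.33 and 1.74.

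On the authors' RPM urine took another place. Which reads make up the larger total behind RPM is not stated in the labels. miR-21 was at 18377 RPM in semen, 13570 in bile, 1173 in serum, 112 in urine and 682 in plasma. Urine was thus last, whereas by share it stood above serum and plasma. Semen exceeded urine 165 times and bile exceeded it 122 times, beside 94.8% and 96.5% of the miRNAs compared that were also at least 2-fold higher there. These shares, too, rest on names that mostly reached 100 counts in semen or bile alone. Serum over urine was 10.5, with a background of 93.3%. Urine over plasma was 0.163, with 84.6% of miRNAs at least 2-fold lower in urine. The place of urine for miR-21 therefore differed between the scales, and the listed miRNAs together took the lowest part of the library total in urine, 0.246%.

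Semen and bile stood highest on either scale. Semen over serum was 15.7 on RPM and bile over serum 11.6, with backgrounds of 50.4% and 44.9%. Over 7 scalings, semen and bile each exceeded serum and plasma by more than 2-fold. Within these scalings the 4 ratios were never under 3.03, the value of bile over plasma with DESeq2 size factors. Other readings of the excess over plasma were lower. Relative to the medians of the 67 names it was 2.79 for semen and 2.91 for bile. Read over 5 widely expressed miRNAs without miR-423-5p, described below, it was 1.54 and 1.58, within 2-fold. Semen over serum ranged between 3.19 and 15.7, semen over plasma between 3.29 and 26.9, and bile over serum between 3.14 and 11.6. Serum over urine, serum over plasma and urine over plasma changed direction with the scaling. Semen over bile, never past 2-fold, ranged between 0.931 with TMM and 1.46 without the most abundant miRNA of each library.

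**Figure D3:**
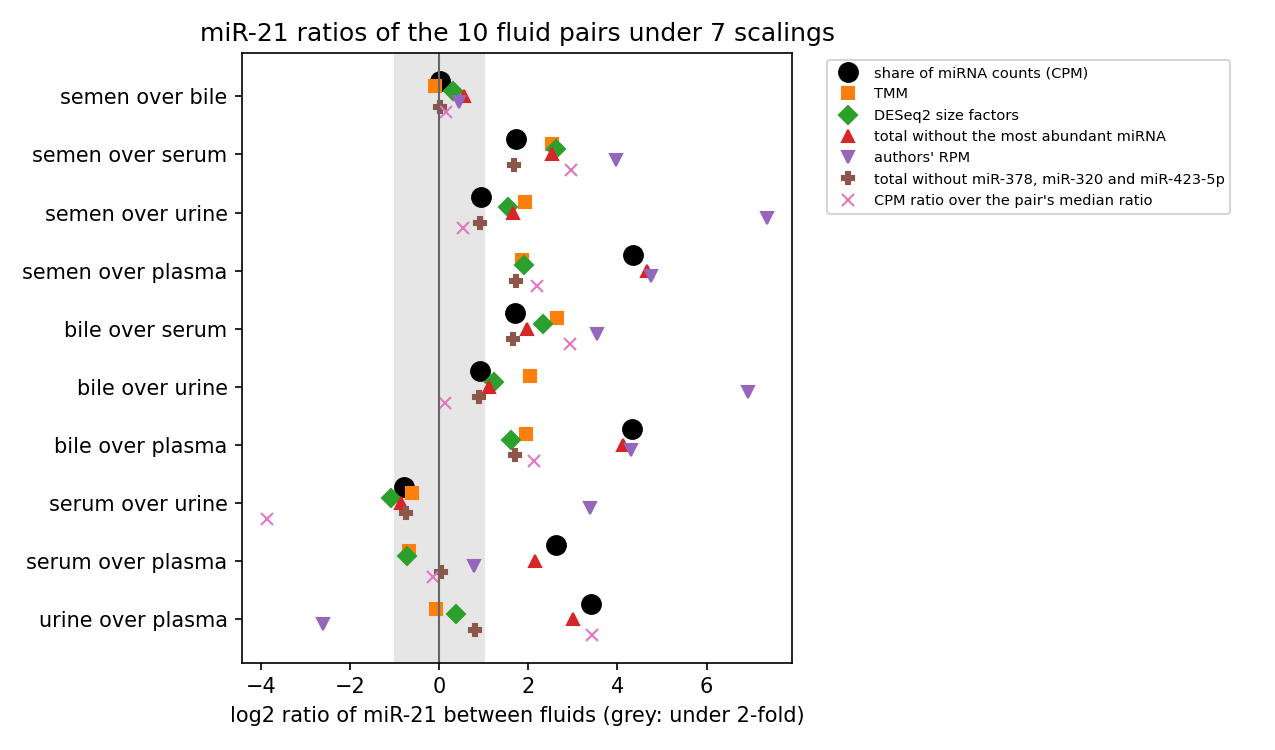
log2 ratio of miR-21 between the fluids of each of the 10 pairs (1 library each) under 7 scalings, with the CPM ratio as a large black circle and the band under 2-fold in grey. The symbols of semen and of bile over serum and plasma all lie right of the band; those of serum over urine, serum over plasma and urine over plasma fall on either side of 0.

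miRNAs with the pattern most like that of miR-21 were looked for among the 66 other names with at least 10 counts in all 5 libraries. Likeness was the root mean square difference, over the 5 fluids, of log2(CPM + 1) centred on each miRNA's own mean. The nearest was miR-148a-3p, at a difference of 0.43. It had 52.8% of counts in semen, 32.1% in bile, 18.1% in serum, 16.6% in urine and 1.41% in plasma. Its counts were 6.08 times those of miR-21 in semen, 3.75 in bile, 6.88 in serum, 3.66 in urine and 3.32 in plasma. The ratio of these miRNAs thus spanned 2.08-fold over the fluids, while miR-21 itself spanned 20.4-fold in CPM.

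Next came miR-29a, known in mouse for restraining collagen genes, at 0.60. miR-21 had 29.7 times its counts in semen, 59.7 in bile, 18.2 in serum, 30.9 in urine and 20.2 in plasma. miR-151-3p followed at 0.68, and miR-21 exceeded it 12.7 times in semen, 13.3 in bile, 4.73 in serum, 5.87 in urine and 4.55 in plasma. These ratios were higher in semen and bile than in the other fluids for miR-151-3p, but not for miR-29a, where semen lay beside urine. The other 7 of the 10 nearest, each with its difference, were miR-101 (0.72), miR-222 (0.75), miR-374b-5p (0.77), let-7c (0.81), miR-98 (0.83), let-7i (0.84) and let-7e (0.90). The values of let-7c, let-7e, let-7i and miR-98 are uncertain, since members of the let-7 family differ by few bases and how reads matching more than 1 name were counted is not stated in the labels. miR-222 and miR-374b-5p rest on 12 and 11 counts in urine, and let-7e on 24.

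All 10 nearest miRNAs were lowest in plasma, as were 41 of all 67 names. This follows largely from the choice of the 10 by likeness to miR-21, whose pattern departs most from its mean in plasma. The 10 differed in their highest fluid, which was semen for 2, bile for 3, serum for 1 and urine for 4. The 3 farthest were miR-320 at 5.00, miR-378 at 4.95 and miR-378b-3p at 4.92, all leading miRNAs of plasma. miR-148a-3p and miR-29a were among the 10 nearest in all 12 settings tried, of which 3 rescale whole libraries and hardly change a likeness by construction. The list depended on the urine library: without it, 5 of the 10 remained.

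**Figure D4:**
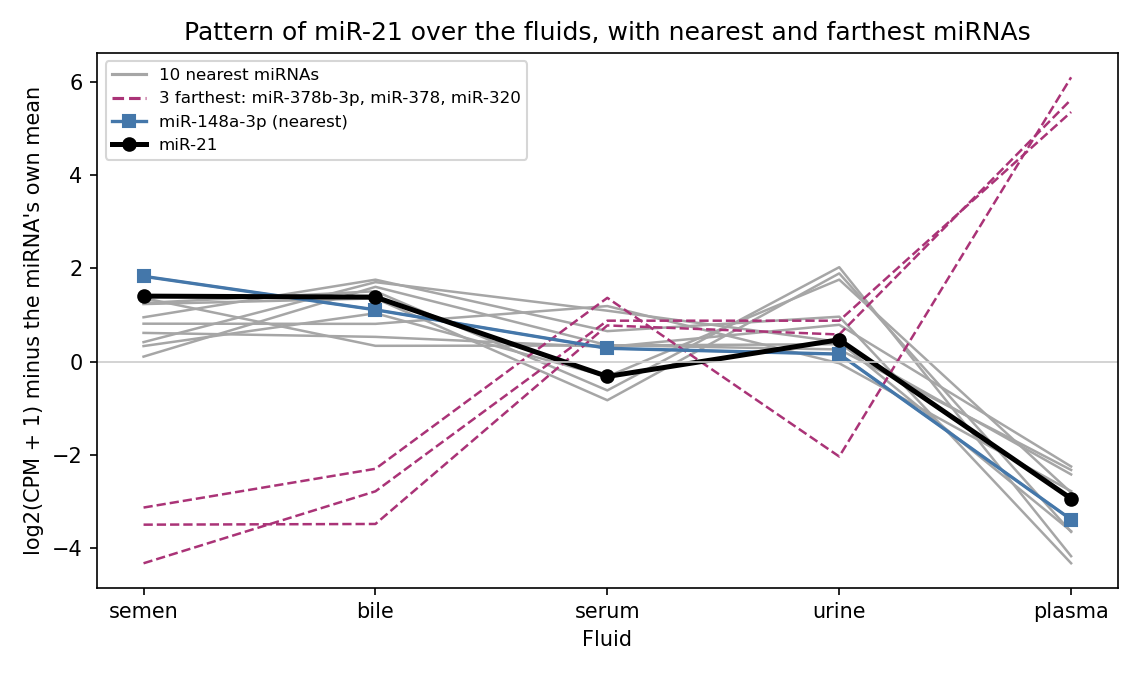
log2(CPM + 1) minus each miRNA's own mean over the 5 fluids (1 library each) for miR-21 (black), the nearest miRNA miR-148a-3p (blue), the other nearest (grey) and the 3 farthest (dashed). miR-21 and the 10 nearest drop together in plasma, at −2.94 for miR-21, where the farthest are highest.

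A ratio of counts within a library needs no library total, so miR-21 was also set against miRNAs that are widely expressed or often used to scale fluid measurements. Of 10 chosen names, 8 were listed, miR-484 was at 0 in all libraries, and 6 had at least 10 counts in all 5 fluids. miR-21 over the geometric mean of these 6 was 23.1 in semen, 25.1 in bile, 2.13 in serum, 12.6 in urine and 4.37 in plasma. Serum was lowest and bile highest by this measure. Without miR-423-5p, which leads in plasma, the ratio was 18.9 in semen, 19.4 in bile, 2.20 in serum, 8.84 in urine and 12.3 in plasma.

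Serum gave the lowest ratio for 5 of the 7 miRNAs with counts. Of these 7, however, 4 had their own highest CPM in serum. That is 57.1%, beside 37.1% of all 237 miRNAs with at least 10 counts in any library. The part of these 4 in the low serum ratios was not tested, and the same count was not made for other miRNAs. Over miR-16, a miRNA abundant in red blood cells, miR-21 was 954 in semen (833 to 1099), 273 in bile, 10.2 in serum (9.60 to 10.8) and 117 in plasma, and miR-16 was listed at 0 in urine. Over miR-103 it was 91.5 in semen, 39.8 in bile, 4.01 in serum, 44.6 in urine and 49.7 in plasma. Here semen led and serum was lowest by far, with urine, bile and plasma near one another.

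miR-191 gave 17.3 in semen, 37.0 in bile, 4.02 in serum, 12.9 in urine and 12.4 in plasma. For miR-24-3p the ratio was 157 in semen, 56.4 in bile, 1.51 in serum, 24.6 in urine and 2.30 in plasma. Against let-7a it was 3.70 in semen, 4.87 in bile, 1.49 in serum, 3.56 in urine and 14.1 in plasma. Plasma was thus near the bottom against miR-24-3p and at the top against let-7a.

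miR-26a put plasma highest too, at 13.8, beside 2.64 in semen, 6.84 in bile, 1.42 in serum and 1.07 in urine (0.985 to 1.16). miR-423-5p put it lowest, at 0.0253, beside 62.1 in semen, 90.3 in bile, 1.79 in serum and 75.3 in urine. Which fluid counts as rich in miR-21 therefore differed with the miRNA it was read against. In serum it exceeded each of the 7 by 1.42 to 10.2 times.

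**Figure D5:**
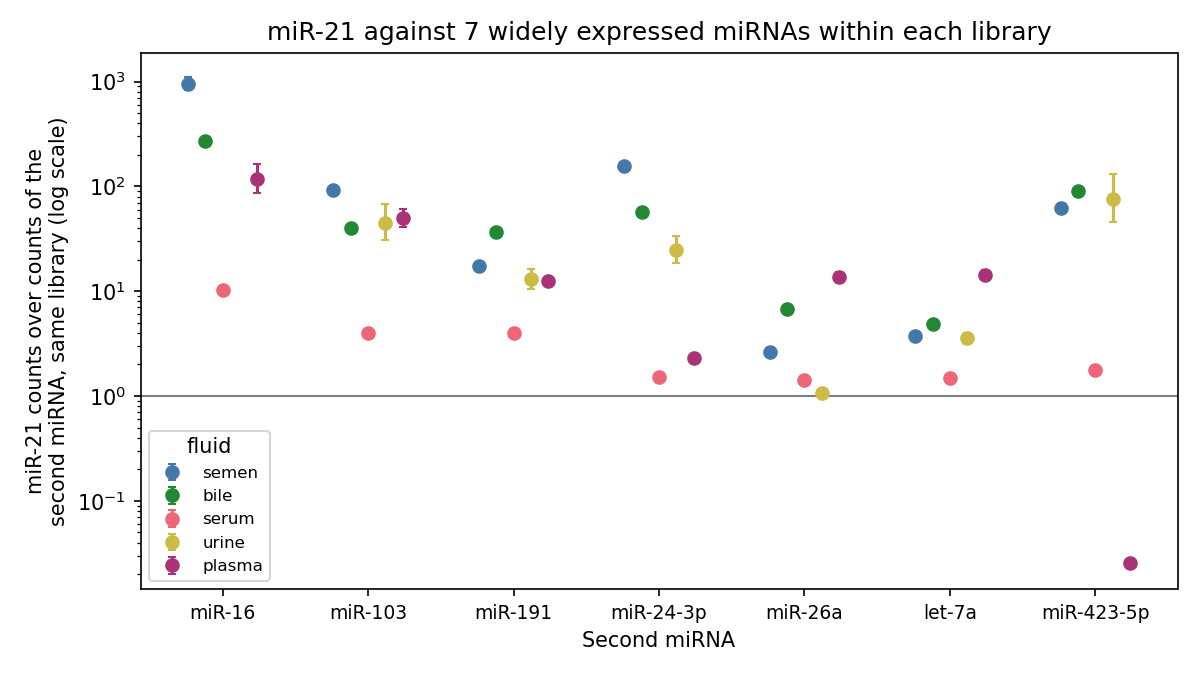
Counts of miR-21 over the counts of each of 7 widely expressed miRNAs in the same library, on a log axis, by fluid, with exact 95% counting intervals. Serum (red) is lowest for 5 of the 7, plasma (purple) reaches 14.1 for let-7a and 0.0253 for miR-423-5p, and miR-16 has no urine point because it is listed at 0 there.

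Other miRNAs tied to inflammatory signals in human or mouse were compared with miR-21. Of 11 chosen names 10 were measured, and 7 of them had their highest CPM in serum, 2 in urine and 1 in semen. Over all 237 miRNAs with at least 10 counts in any library, 37.1% were highest in serum. Among 9 members with enough counts, 6 were at least 2-fold lower in semen than in serum and 1 higher, beside 51.1% of all miRNAs lower. In bile over serum 6 of 9 were lower and 1 higher, beside 53.6% of all lower. Their median ratio was 0.0319 in semen over serum, against 0.428 for all miRNAs. miR-21, at 3.31, lay on the other side of 1. So did miR-222, at 0.0286% of counts in semen and 0.00676% in serum, and miR-125b, at 0.0611% and 0.0306%. miR-132 did too, at 0.00302% and 0.00275%, on 69 and 13 counts. Every other measured member was lower in semen than in serum.

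miR-146a-5p, which dampens NF-κB signalling, had 134 counts in semen, 1966 in bile, 5315 in serum, 15 in urine and 3836 in plasma. miR-21 exceeded it 1481 times in semen, but 2.34 times in serum and 1.28 times in plasma. miR-155-5p, known from activated immune cells, had 168 counts in bile, 104 in serum and 31 in plasma and was listed at 0 in semen and urine. Its shares were 0.0100% in bile, 0.0220% in serum and 0.00269% in plasma. A listed 0 stands for 0 to 9 reads, as no table holds a count between these and 10. miR-222, known for restraining cell cycle inhibitors, was the member at least 2-fold higher in semen and in bile than in serum, with 654 counts in semen, 521 in bile, 32 in serum, 12 in urine and 10 in plasma. miR-21 alone was 32.9 times the sum of the 10 members in semen, 19.4 times in bile and 8.92 times in urine. In serum it was 0.786 times and in plasma 0.719 times that sum. These 2 values rest mostly on 2 members, miR-146a-5p and miR-24-3p. miR-24-3p had 8203 of the 15816 counts of the sum in serum and 2141 of the 6841 in plasma.

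The remaining members were miR-24-3p, which is also in the list of widely expressed miRNAs, miR-181a, miR-181b, miR-221-3p, miR-146b, miR-125b and miR-132. miR-181a had 76 counts in semen, 846 in bile, 1030 in serum, 22 in urine and 195 in plasma. miR-221-3p, the partner of miR-222, had 2272 in semen, 302 in bile, 515 in serum, 14 in urine and 500 in plasma. By share miR-221-3p was highest in serum, at 0.109% beside 0.0994% in semen, and lowest in bile, at 0.0180%. The share of miR-222 was highest in urine, at 0.0452%, and lowest in plasma, at 0.000867%. The pair miR-221-3p and miR-222 thus differed in their order of fluids by share.

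miRNAs known from TGF-β signalling or scarring made a further list, of which 11 of 12 were measured. Their highest fluid was bile for 4, semen for 3, serum for 3 and urine for 1, so that 63.6% were highest in semen or bile, beside 30.4% of all 237. In bile over serum 7 of 11 were at least 2-fold higher and 3 lower, where 28.3% of all miRNAs were higher. In semen over serum 4 of 9 were higher and 5 lower, beside 25.5% of all higher and 51.1% lower, and their median ratio was 0.0168, against 0.428 for all miRNAs. In semen over bile 2 of 10 were higher and 7 lower, beside 33.3% of all higher and 37.7% lower, with a median ratio of 0.00132 against 0.911. Semen and bile, alike in their share of miR-21, thus differed in most members of this list. The 3 members of the miR-29 family, highest in semen, were miR-29a, with 6678 counts there and 2401 in bile, miR-29b, with 355 and 108, and miR-29c, with 148 and 108. For miR-29c the shares were nearly equal, at 0.00648% in semen and 0.00645% in bile. miR-29b and miR-29c were listed at 0 in serum, urine and plasma, and near-identical sequence makes their split uncertain.

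The members led by bile were miR-192, miR-143-3p, a smooth muscle miRNA, and both arms of miR-199a, a miRNA of fibroblasts. miR-143-3p had 37946 counts in bile, 960 in serum, 915 in plasma, 82 in urine and 78 in semen. miR-199a-3p had 6954 counts in bile and 11 in semen. miR-21, by contrast, was at the same share in bile as in semen within 1.02-fold. miR-192 also belongs to the liver list, which moved with bile at 19.7% of counts, and the part of liver RNA in the bile value of miR-21 was not tested.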

How the data were processed

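Small RNA libraries of exosomes from 5 fluids, 1 per fluid, were analysed. Per the submitters' processing notes bcl2fastq 2.17 and the build Sscrofa10.2 were used. The aligner, the miRNA annotation and the handling of multiple matches are not given in the sources. Deposited tables give a raw read count per miRNA. The second deposited column is RPM, computed by the authors against a library total. Counts divided by RPM gave this total, and single values deviated from it by at most 0.00461%. Every deposited count was 0 or at least 10.

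From the counts, shares, CPM, ranks, ratios and likeness were computed with Python 3.11.15 and scipy 1.17.1. Pair ratios were called at 2-fold, and the background took miRNAs with at least 100 counts in either library. Scripts were tested on simulated data. With 1 library per fluid no p-value is given, and intervals cover counting error only. Alternatives were edgeR 4.0.16 TMM and DESeq2 1.42.0 size factors, used for scaling alone, totals without leading miRNAs, RPM, other limits and minimum counts, summed arms and fewer libraries.

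Named miRNAs were miR-21, its neighbours in rank, the 10 nearest and 3 farthest in pattern, and members of fixed lists. miR-93, miR-25, miR-223, miR-200b and miR-449a, also on the lists, were not analysed here, nor were shared seeds. The subject and the lists were chosen with earlier results of these data known.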

Additional observations from a re-analysis of the deposited data

How the results depend on the processing

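The share of miR-21 kept semen and bile as the highest fluids under all 5 other scalings, but its size moved. With TMM it was 7.74% in semen, 8.32% in bile, 1.34% in serum, 2.04% in urine and 2.15% in plasma, so that bile stood over semen and plasma over serum and urine. With DESeq2 size factors it was 7.98%, 6.49%, 1.30%, 2.76% and 2.14% in the same order of fluids. Without the most abundant miRNA of each library it was 18.4%, 12.6%, 3.21%, 5.83% and 0.727%. As a percent of the authors' library totals it was 1.84%, 1.36%, 0.117%, 0.0112% and 0.0682%. Without miR-378, miR-320 and miR-423-5p serum came to 2.73% and plasma to 2.65%, and the other 3 fluids stayed within their counting intervals. Serum over plasma changed direction to 0.624 with TMM, 0.910 over the median ratio and 0.605 with DESeq2 size factors. Urine over plasma changed direction to 0.949 with TMM and 0.163 on RPM. Serum over urine, 0.579 and within 2-fold on CPM, came to 10.5 on RPM. Semen over bile came to 0.931 with TMM and to 1.46 without the most abundant miRNA of each library. Ratios over the median ratio in pairs with urine rest on miRNAs that mostly entered through the other fluid. The number of pairs past 2-fold was 4 to 9 of 10 under other scalings and limits of size, 5 of 6 pairs without the urine library, and 2 of 6 without the plasma library, where fewer pairs were compared. Of the 10 nearest miRNAs 6 remained without the bile library and 5 without the urine library, and 7 to 10 under the other settings, of which TMM, DESeq2 size factors and RPM hardly change a likeness by construction. Read over a reference miRNA, 7 pairs passed 2-fold with the geometric mean, 6 to 9 with each of the 6 alone and 6 without miR-423-5p. Similar numbers hid different pairs. Without miR-423-5p semen over plasma fell from 5.28 to 1.54, bile over plasma from 5.74 to 1.58 and urine over plasma from 2.89 to 0.721. Semen over urine rose from 1.83 to 2.14 and bile over urine from 1.99 to 2.20, past the limit. Leaving out the urine or plasma library for the pairs, and the miRNAs above, was chosen after the data were seen. Ranks were the same with the arms of each hairpin summed. No paired analysis was possible because each fluid has 1 library. Urine, with 26522 miRNA counts, limits the values that rest on low counts there.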

Other observations

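miR-21 was among 4 miRNAs in the top 20 of all 5 libraries, with miR-148a-3p, miR-99a and let-7i. Its geometric mean over the fluids, 32771 CPM, was second to the 148341 CPM of miR-148a-3p among the 67 names with at least 10 counts in every library, and was followed by miR-99a with 27200 CPM and let-7i with 25751 CPM. The SD of its log2 CPM over the fluids was 1.79, beside a median of 2.31 for these names, and 21 of the 66 others had a smaller SD. Without plasma the SD was 0.83, beside a median of 1.31. On the authors' RPM its SD was 3.09, beside a median of 2.88, and 42 others had a smaller one. miR-21 thus varied less than the median name between fluids as a share of miRNA counts, and slightly more than it on RPM.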
